A study of Mus musculus with 92 samples.

Results

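Collagens are the family of extracellular matrix proteins that fold as triple helices, and every gene whose annotated symbol is Col, a number, the letter a and a number was taken as a member. The rule found 37 collagen genes, read by 55 probes, among the 15967 genes with a symbol on the array; 25 of the 37 had 1 probe and 12 had several. Illumina bead arrays, 92 in all, were run on RNA from 3 tissues: the lumbar part of the spinal cord, a fast leg muscle (the left tibialis anterior) and whole blood depleted of globin transcripts. The animals were G93A-SOD1 mice of the line B6.Cg-Tg(G93A-SOD1)1Gur/J, which carry a mutant human superoxide dismutase 1 transgene, and their wild type littermates, sampled at 70 and at 100 days of age without any treatment named in the labels. The line is a model of amyotrophic lateral sclerosis with many copies of the transgene under its human promoter, so the mutant protein is made in all tissues and not in motor neurons alone. Of the 12 groups, wild type at 100 days held 7 arrays in each tissue, G93A-SOD1 muscle at 100 days held 7, and the others held 8. The labels do not say whether arrays of a group came from separate mice, so a p-value measures the spread between these arrays, and their number limits the precision of every value. No probe was taken to read the human transgene, so the genotype labels were not checked on the arrays, and the labels give no sex.

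A collagen molecule is built from 3 chains that are modified and folded in the endoplasmic reticulum, secreted, trimmed and cross-linked outside the cell. Fibrillar collagens form the ropes of tendon and of the sheaths around muscle fibres, type IV collagen forms the sheet-like network of basement membranes around muscle fibres, capillaries and Schwann cells, and type VI forms beaded filaments between them. In skeletal muscle most collagen is made by fibroblast-like cells of the interstitium. In whole-tissue RNA a change in the number of cells of a type cannot be told apart from a change in RNA per cell.

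Col4a1 and Col4a2 encode the chains of the most widespread type IV collagen and lie head to head on mouse chromosome 8, sharing a promoter region. Their RefSeq promoter windows (assembly GRCm38.p6, from 250 bases before the annotated start to 50 after it) are shown because both genes were called higher in muscle and were closely correlated there. The Col4a1 window is chr8:11312777-11313076 on the minus strand and the Col4a2 window is chr8:11312555-11312854 on the plus strand. The annotated starts are 21 bases apart on opposite strands and the windows overlap by 78 bases. Capitals mark matches, on either strand, to the letters of a CCAAT box (CCAAT) or a GC box (GGGCGG).
Col4a1: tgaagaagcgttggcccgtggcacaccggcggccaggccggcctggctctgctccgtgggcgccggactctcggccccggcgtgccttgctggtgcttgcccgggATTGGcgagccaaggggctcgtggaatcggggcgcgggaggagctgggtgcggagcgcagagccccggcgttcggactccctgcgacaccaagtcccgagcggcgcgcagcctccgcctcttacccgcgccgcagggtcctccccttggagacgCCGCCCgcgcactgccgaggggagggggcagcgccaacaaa
Col4a2: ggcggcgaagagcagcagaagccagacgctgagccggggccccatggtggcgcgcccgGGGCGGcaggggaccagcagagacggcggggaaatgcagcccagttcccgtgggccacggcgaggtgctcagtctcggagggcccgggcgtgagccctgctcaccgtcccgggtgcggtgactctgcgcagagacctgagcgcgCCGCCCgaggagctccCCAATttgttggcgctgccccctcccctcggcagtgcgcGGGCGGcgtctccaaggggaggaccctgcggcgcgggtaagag
The Col4a1 window held 1 CCAAT and 1 GC box match, and the Col4a2 window held 1 and 3. The GC box match of Col4a1 lies in the overlap and is the last of the 3 of Col4a2, read from the other strand. The TATA box letters TATAAA, the SMAD element letters CAGACA and the AP-1 letters TGANTCA were found in neither. The windows of the other collagen genes called higher in muscle, Col15a1 at chr4:47207762-47208061 and Col23a1 at chr11:51289670-51289969, both on the plus strand, held 0 matches and 1 GC box match. RefSeq windows were found for 30 of the 37 genes, 32 windows in all. Of these, 20 held the GC box letters (35.7% of all 32851 windows did), 13 the CCAAT letters (37.4%), 8 the SMAD letters (21.0%), 5 the TATA letters (13.6%) and 1 the AP-1 letters (7.81%). A match describes the letters of a window and is no binding site.

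Collagen genes were tested in a tissue where 7 or more of its arrays detected a probe (detection p-value under 0.05), and where several probes qualified the brightest was used. This filter left 20 collagen genes in spinal cord, 18 in muscle and 4 in blood, of 10801, 9089 and 8403 genes tested. On all 30 muscle arrays 9 genes were detected, against 3 on all 31 spinal cord arrays and 0 on all 31 blood arrays. In cord Col4a1, Col4a5, Col5a1, Col6a1, Col15a1, Col18a1 and Col23a1 were each detected on 30 of 31 arrays. Each was detected on 7 of 8 G93A-SOD1 arrays at 70 days, the group that holds the dimmest cord array (5212 probes detected). The contrast of cord with muscle in these counts thus hangs on a single cord array per gene. Col23a1, Col4a2, Col5a1 and Col6a1 passed in every tissue, and 13 more passed in both cord and muscle, among them the fibrillar genes Col1a1, Col1a2 and Col3a1. Col27a1, Col4a5 and Col9a2 passed in cord alone and Col10a1 in muscle alone.

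The other 16 collagen genes passed in no tissue. They include Col2a1, Col9a1, Col9a3, Col11a1 and Col11a2, the collagens of cartilage, the kidney-type basement membrane chains Col4a3 and Col4a4 with Col4a6, and the further chains Col5a2, Col5a3, Col6a4, Col6a6 and Col17a1. They also include 3 genes with known roles at the contact of nerve and muscle. Col13a1, a transmembrane collagen that holds acetylcholine receptors at the synapse, was detected on 1 muscle array, and on 2 of cord and 3 of blood. Col25a1, which muscle uses to draw in motor axons, has 5 probes, none of them detected on a muscle array. Col19a1, a matrix collagen that helps form synapses, was detected on no array. These 16 genes were not tested for a difference.

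**Figure D1:**
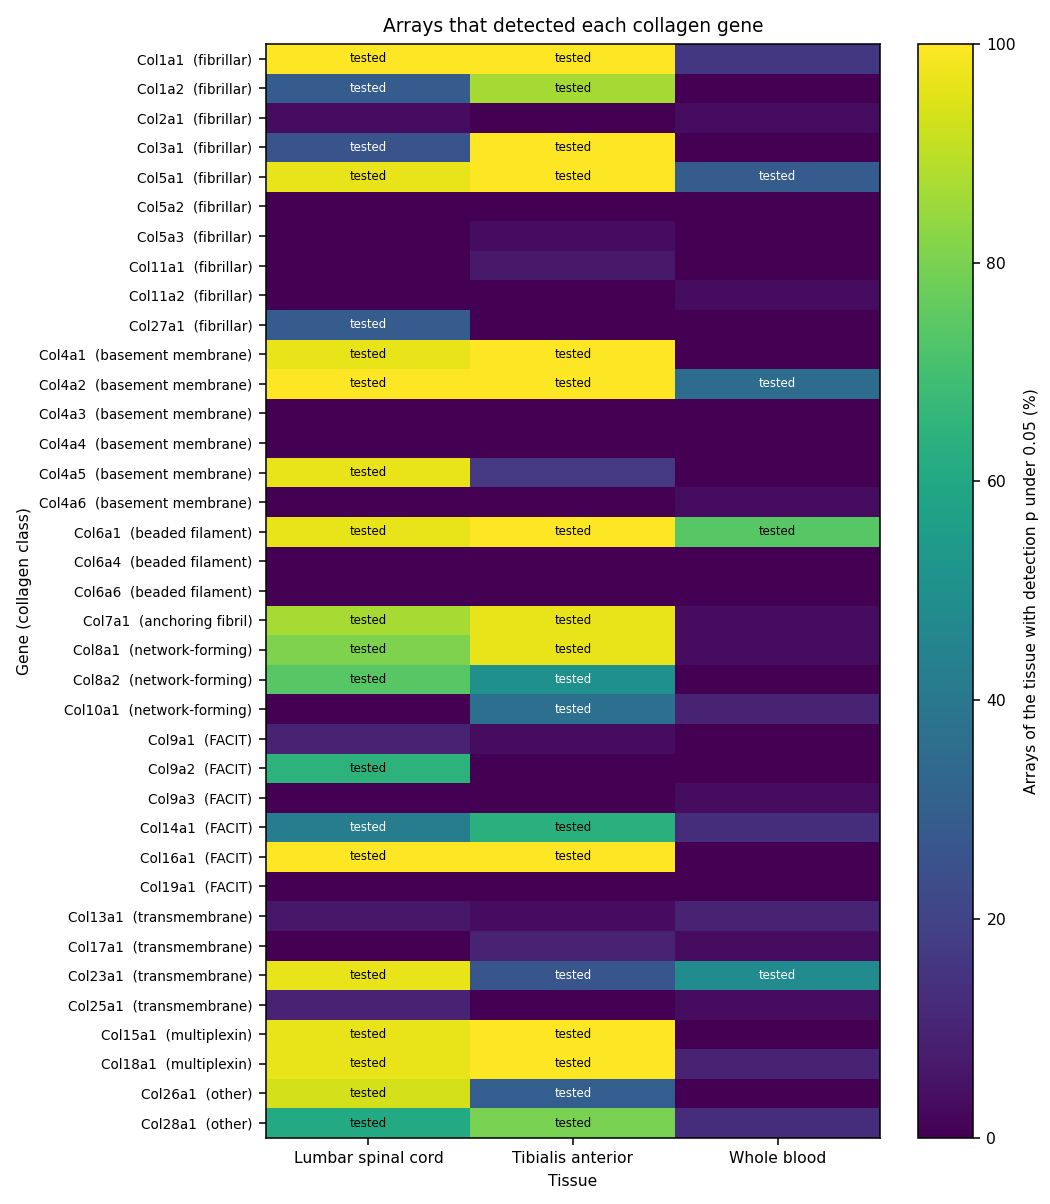
Share of arrays of each tissue (columns) with a detection p-value under 0.05 for each of the 37 collagen genes (rows, by class), taking the probe detected most often. Colour runs from 0 to 100% of arrays, and "tested" marks genes detected on 7 or more arrays; muscle and cord share most of the bright rows, and blood has 4 tested genes.

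The tissue labels were checked against defining transcripts. All 7 muscle transcripts examined (such as Ckm and Myh4) were detected on every muscle array, and 7 of 8 blood transcripts on every blood array. Of 7 neural and glial transcripts, 2 were detected on every cord array and 5 on at least 7 of them. The muscle list gave the same 2 counts on cord arrays, so these counts do not tell cord from muscle, but the neural and glial transcripts Chat, Gfap, Nefl, Olig2 and Syt1 were detected on no muscle or blood array. Arrays detected 5212 to 13428 probes in cord, 8512 to 11577 in muscle and 6809 to 9691 in blood. In cord, 2 arrays were dim: replicate 1 of G93A-SOD1 at 70 days, with 5212 probes, and replicate 5 of wild type at 100 days, with 9208. Another 3 cord arrays carried muscle transcripts, with a list mean 2.80 to 4.46 log2 units above the wild type cord mean, against 0.32 at most on the rest: replicates 3 and 5 of wild type at 70 days and replicate 8 of G93A-SOD1 at 100 days. In blood, replicate 6 of wild type at 70 days had a median raw signal of 190.8, against 93.6 on the next array. No 2 arrays of a group were identical.

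In wild type mice most detected collagens had their highest mean in muscle. With all arrays normalized together, 15 of the 21 genes that passed in any tissue had their highest mean in muscle and 6 in cord. Every wild type muscle array lay above every wild type cord and blood array for 5 of the 21 genes, Col15a1, Col4a1, Col4a2, Col5a1 and Col6a1, where 10.4% of all genes did so. Col4a1 stood at 10.73 ± 0.44 in muscle, 8.37 ± 0.56 in cord and 4.75 ± 0.45 in blood (log2, SD, n = 15 each), and was detected on none of these 15 blood arrays. Col6a1, a chain of the beaded filaments whose loss causes muscle disease in humans, stood at 10.15 ± 0.33, 7.48 ± 0.53 and 5.44 ± 0.83. Col1a1, the main chain of fibrillar collagen I, stood at 10.19 ± 0.82 in muscle and 7.19 ± 0.90 in cord, and the lowest muscle array (8.79) lay just below the highest cord array (8.84).

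Col23a1, a transmembrane collagen, had the opposite order. It stood at 7.14 ± 0.39 in cord (detected on 15 of 15 arrays), 5.50 ± 0.61 in blood (8 of 15) and 4.80 ± 0.23 in muscle (1 of 15). It was the only one of the 21 genes with every wild type cord array above all wild type muscle and blood arrays, where 11.8% of all genes did so. Col16a1, a collagen that binds to fibril surfaces, had its highest mean in cord, at 8.55 ± 0.35 against 7.92 ± 0.49 in muscle, but the arrays of these tissues overlapped. Col4a5, a basement membrane chain, was highest in cord at 5.49 ± 0.20, against 4.79 ± 0.09 in muscle. For Col10a1, Col14a1 and Col28a1 the muscle and blood means differed by 0.13 or less, under the SD in either tissue. For Col8a2 the muscle mean lay 0.15 above the cord mean, with SDs of 0.77 and 0.31. The wild type cord arrays include replicates 3 and 5 at 70 days, which carried muscle transcripts, and the dim replicate 5 at 100 days. Levels without these arrays are not given. These levels were described over tissues and were not tested.

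**Figure D2:**
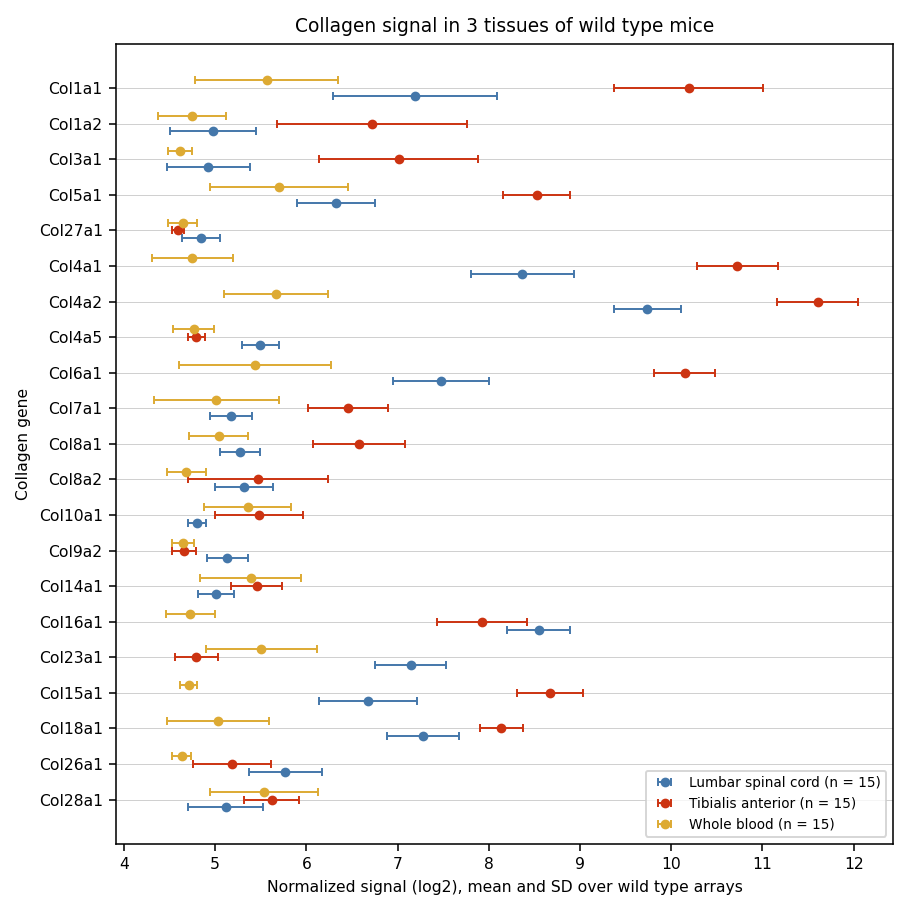
Normalized signal (log2, horizontal) of the 21 collagen genes that passed the filter in any tissue (vertical), with points at the mean and bars at 1 SD over the 15 wild type arrays of each tissue, all arrays normalized together. Muscle points lie furthest right for 15 genes, and Col23a1 lies furthest right in cord at 7.14.

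In muscle at 100 days, G93A-SOD1 mice had higher levels of both type IV collagen chains and of a multiplexin. Limma called 4 of the 18 tested collagen genes higher, Col15a1, Col23a1, Col4a1 and Col4a2, and 0 lower; over all 9089 genes 6.05% were called higher and 10.8% in either direction. Col23a1, the 1 transmembrane collagen tested, passed the detection filter mostly through G93A-SOD1 arrays, so its call is not read as a result; without it 3 of 17 were called. By class, both type IV chains rose and 1 of 2 multiplexins, while 0 of 4 fibrillar, 0 of 3 short-chain network and 0 of 2 fibril-associated (FACIT) genes passed (1, 1 and 0 at an unadjusted p-value under 0.05). Class medians were 0.60 for type IV, 0.58 for multiplexin, 0.71 for fibrillar, 0.31 for short-chain network and 0.43 for FACIT genes (log2 units). The counts thus do not set these classes apart, and no test compared them. The difference was above 0 for 16 of the 18, with a median of 0.60 log2 units, where 48.5% of all genes were above 0 with a median of -0.01; without Col23a1 it was 15 of 17 and 0.57. Unadjusted p-values under 0.05 were reached by 9 of the 18, against 28.0% of all genes. When arrays were centred on their medians in place of quantile normalization, 36 of all genes were called higher and 7 lower (550 and 432 before) and 0 collagens. Still, 16 or 17 of the 18 were above 0 under every setting that kept the tested set of genes.

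Col15a1 encodes type XV collagen, a multiplexin that ties basement membranes to the matrix around muscle fibres and capillaries. On the wild type arrays at 100 days its lowest, median and highest values were 7.98, 8.24 and 9.08, and on the G93A-SOD1 arrays they were 8.82, 9.10 and 9.68. The mean rose 1.72-fold, from 8.42 ± 0.43 (SD, n = 7) to 9.20 ± 0.35 (SD, n = 7), a log2 difference of 0.78 (SE 0.19, 95% interval 0.39 to 1.17; limma, adjusted p = 0.0144). All but the highest pair of wild type arrays lay below every G93A-SOD1 array. Its multiplexin relative Col18a1, whose fragment endostatin restrains blood vessel growth, differed by 0.38 (SE 0.13, interval 0.12 to 0.65) and was not called (limma, adjusted p = 0.0545).

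Col4a1 ran from 10.01 to 10.95 in wild type (median 10.47) and from 10.57 to 11.65 in G93A-SOD1 (median 10.97). It rose 1.55-fold, from 10.48 ± 0.41 to 11.12 ± 0.39 (SD, n = 7 each), by 0.64 log2 units (SE 0.19; limma, adjusted p = 0.0348). Col4a2 ran from 10.84 to 11.89 (median 11.36) and from 11.50 to 12.51 (median 12.09), and rose 1.49-fold, by 0.57 (SE 0.18; limma, adjusted p = 0.0362). For both chains the groups overlapped across the lower G93A-SOD1 arrays. Neither call held without any single one of 7 arrays (G93A-SOD1 replicates 1, 4 and 6, wild type replicates 2, 3, 4 and 7), nor that of Col4a1 without G93A-SOD1 replicate 5 or that of Col4a2 without replicate 3. The highest adjusted p with 1 array left out was 0.0767 for Col4a1 and 0.0830 for Col4a2 (limma).

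Col23a1 was close to background in wild type muscle. It was detected on 0 of 8 wild type and 3 of 8 G93A-SOD1 arrays at 70 days and on 1 of 7 and 4 of 7 at 100 days, so it passed the filter mostly through G93A-SOD1 arrays, and its call is no independent evidence of a difference. Wild type at 100 days ran from 4.52 to 5.11 (median 4.75) and G93A-SOD1 from 4.58 to 6.62 (median 6.14), a difference of 0.89 (SE 0.25; limma, adjusted p = 0.0239). The G93A-SOD1 values split: 4 arrays lay between 6.14 and 6.62 and the other 3 between 4.58 and 4.90, inside the wild type range. Its call ended when any 1 of these 4 high arrays (replicates 1, 2, 3 and 6) was left out (limma, adjusted p up to 0.0711).

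Of the collagens that missed the threshold, Col8a1, a short-chain collagen of vessel walls, had the largest difference, at 1.06 (SE 0.35, interval 0.33 to 1.78; limma, adjusted p = 0.0515). It ran from 5.03 to 6.80 in wild type and from 6.07 to 8.32 in G93A-SOD1, where 4 arrays lay above every wild type array of that age and 3 within their range. Col6a1 differed by 0.51 (limma, adjusted p = 0.0647), and the fit on every probe called a second Col6a1 probe, with 0.44 (SE 0.12; limma, adjusted p = 0.0239), but not another, with 0.45 (SE 0.17; limma, adjusted p = 0.0898). Col7a1, of anchoring fibrils, differed by 0.71 (limma, adjusted p = 0.0841), and Col5a1, which sets fibril width, by 0.64 (limma, adjusted p = 0.0852).

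The main fibrillar genes varied widely between arrays of one group. Col1a1 ran from 8.90 to 10.65 in wild type and 10.20 to 11.27 in G93A-SOD1 muscle at 100 days, a difference of 0.77 (SE 0.39, interval -0.02 to 1.56; limma, adjusted p = 0.191). Col3a1, the collagen of loose connective tissue, ran from 5.34 to 8.48 and from 5.84 to 9.64, a difference of 0.98 (SE 0.52, interval -0.09 to 2.04; limma, adjusted p = 0.225). Col1a2, the partner chain of Col1a1, differed by -0.02 with an interval from -1.10 to 1.07 (limma, adjusted p = 0.987), an interval that spans changes in both directions. Col10a1 and Col28a1 stayed near their detection limit, at -0.06 and 0.02. No collagen gene separated the 2 genotypes without overlap, which 2.54% of all genes did in either direction and 1.83% with G93A-SOD1 higher.

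**Figure D3:**
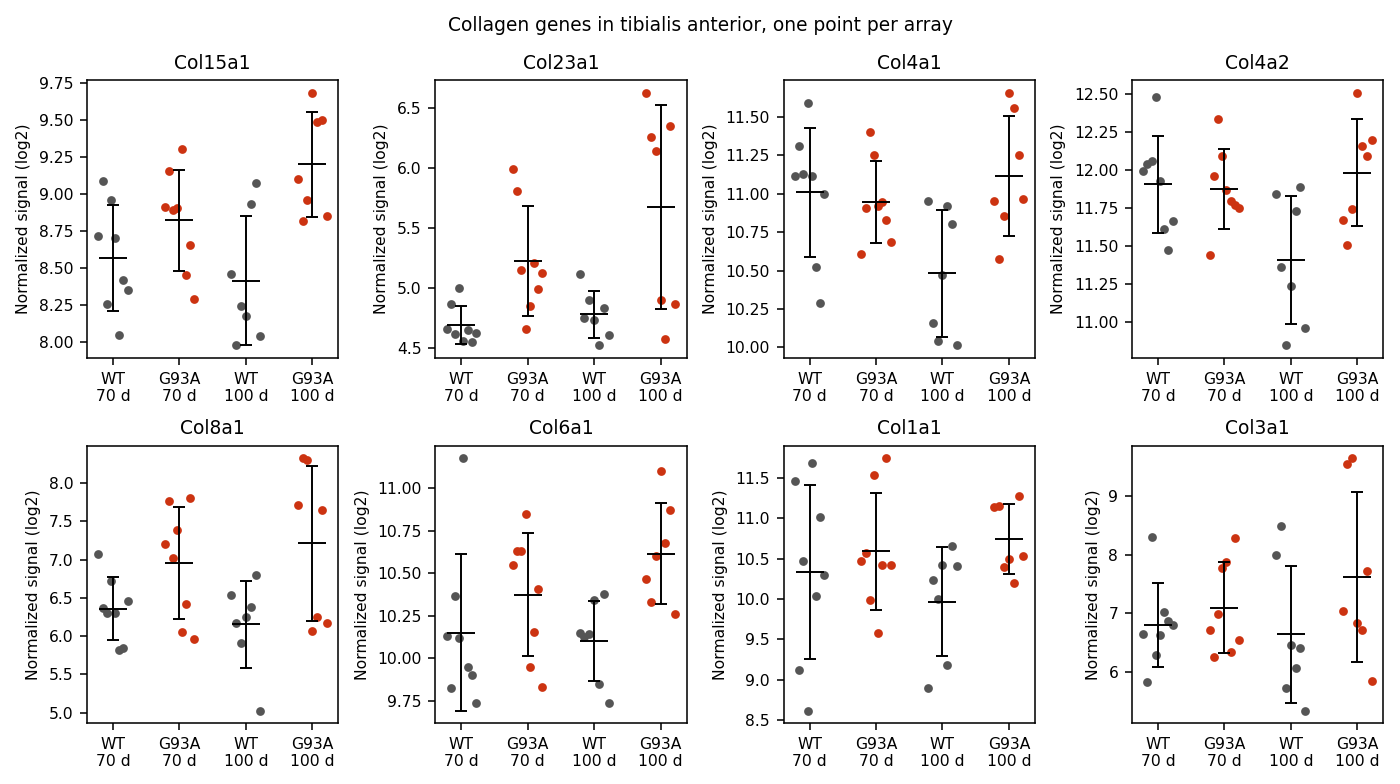
Normalized signal (log2, vertical; each panel has its own scale) of 8 collagen genes in tibialis anterior, with a point for each array, a bar at the group mean and whiskers of 1 SD. Grey points are wild type (WT), n = 8 and 7, and red points G93A-SOD1 (G93A), n = 8 and 7; Col15a1 at 100 days runs from 8.82 to 9.68 in G93A-SOD1 against 7.98 to 9.08 in wild type.

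At 70 days limma called 0 of the 18 collagen genes in muscle, where 0.011% of all genes were called. An unadjusted p-value under 0.05 was reached by 15.4% of all genes and by 1 of the 18 collagens. That gene was Col23a1 (limma, adjusted p = 0.266), whose probe was detected on 0 of 8 wild type arrays, so no fold is given. Col5a1 differed by 0.47 (limma, adjusted p = 0.328) and Col8a1 by 0.59 (limma, adjusted p = 0.396). The type IV chains had differences near 0, with Col4a1 at -0.06 (interval -0.43 to 0.30) and Col4a2 at -0.03 (interval -0.37 to 0.31). Above 0 were 13 of 18 (46.6% of all genes), with a median of 0.19 against -0.02 for all genes. No collagen separated the groups, which 0.066% of all genes did.

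**Figure D4:**
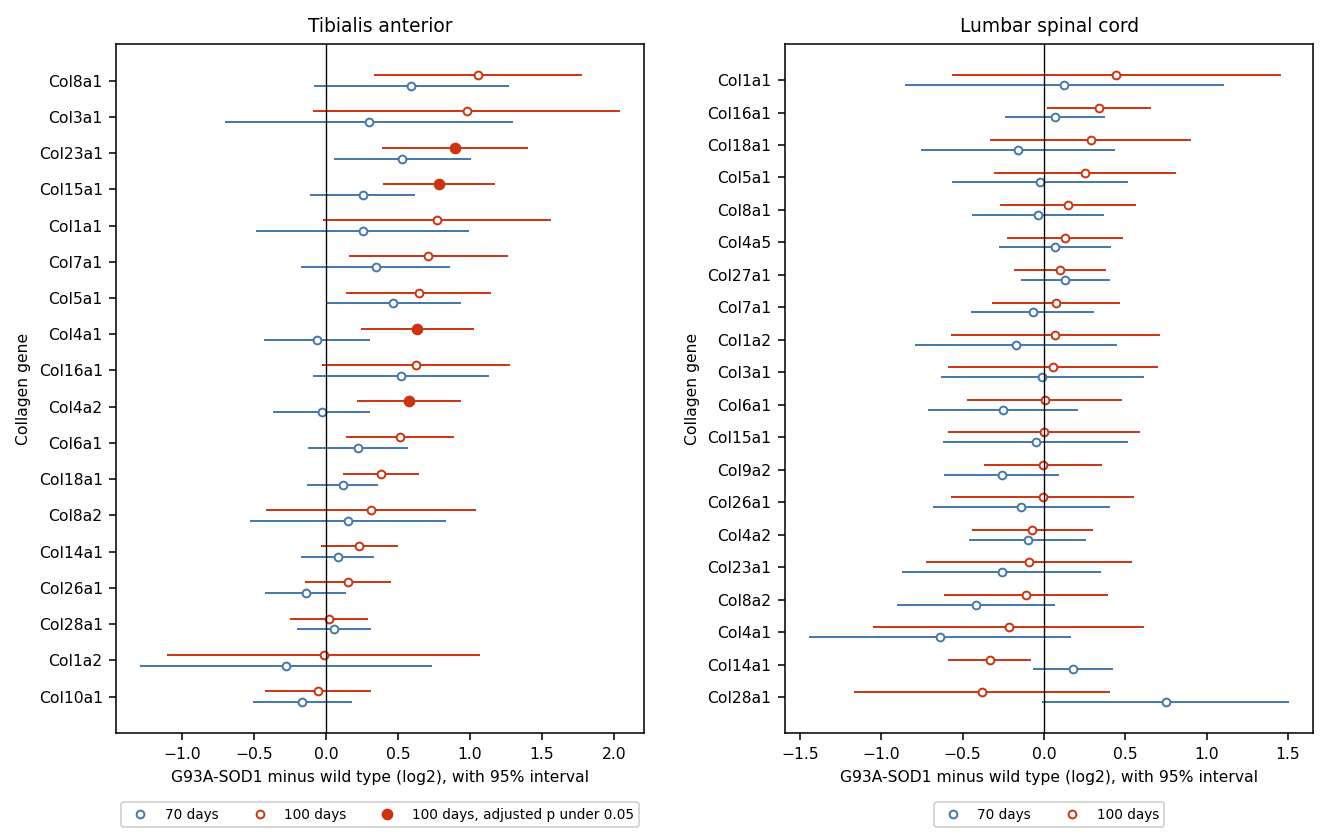
G93A-SOD1 minus wild type (log2, horizontal) for each tested collagen gene (vertical, ordered by the difference at 100 days) in muscle and spinal cord, at 70 days (blue) and 100 days (red), with 95% intervals; filled points passed the adjusted threshold of 0.05 in limma. In muscle 16 of 18 red points lie above 0 and 4 are filled, 1 of them Col23a1, which was detected on 0 of 8 and 1 of 7 wild type arrays; in cord 0 are filled.

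Age was examined within each genotype, with comparisons that share arrays with those above, so their values are given side by side and support nothing further. In wild type muscle 4 of 18 collagens were above 0 and 14 below between 70 and 100 days, where 40.3% of all genes were above 0. The median was -0.21, against -0.04 for all genes, and limma called 0 of the 18 and 0% of all genes. Unadjusted p-values under 0.05 were reached by 4 of the 18, against 11.8% of all genes. Col4a2 differed by -0.50 (interval -0.85 to -0.15; limma, adjusted p = 0.222) and Col4a1 by -0.53 (interval -0.91 to -0.14; limma, adjusted p = 0.241). In G93A-SOD1 muscle the same genes differed by 0.11 and 0.17, Col15a1 by 0.38 (limma, adjusted p = 0.669) and Col23a1 by 0.45 (limma, adjusted p = 0.680). Limma called 0 of 18 there and 0% of all genes, with 0 at the unadjusted level (7.38% of all genes).

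The change of the genotype difference between the ages was 0.70 for Col4a1 (interval 0.16 to 1.24) and 0.60 for Col4a2 (interval 0.11 to 1.10), and limma called neither (adjusted p = 0.998 for both). It called 0 of 18 collagens and 0% of all genes, with 2 of the 18 at an unadjusted p-value under 0.05 (2.53% of all genes). The change was above 0 for 17 of the 18 (52.7% of all genes), with a median of 0.29, against 0.01 for all genes. For the type IV chains the wild type means at 100 days were the lowest of the 4 muscle groups: Col4a1 stood at 11.01 ± 0.42 and 10.94 ± 0.27 at 70 days (wild type and G93A-SOD1, SD, n = 8 each), and at 10.48 ± 0.41 and 11.12 ± 0.39 at 100 days. The wild type mean at 100 days thus lay below both 70-day means, and the G93A-SOD1 mean at 100 days lay above them.

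The arrays were also set beside transcripts known to rise when muscle loses its nerve, such as Chrng, the embryonic acetylcholine receptor subunit. All 6 tested members of this list were called higher at 100 days (limma, adjusted p from 0.00410 to 0.0406), where 6.05% of all genes were. Of 8 members on the array, 6 were detected on 7 or more muscle arrays and only 2 on every one. Members may thus have passed the filter mostly through G93A-SOD1 arrays, so these calls are no independent evidence of a difference. The mean of the 6 over 15 wild type arrays ran from -0.12 to 0.17 around the wild type mean. At 70 days the G93A-SOD1 arrays fell in 2 clusters: replicates 1, 2, 5 and 6 stood at 3.24, 3.66, 3.48 and 3.51, and replicates 3, 4, 7 and 8 at 0.42, 0.04, 0.18 and 0.32. At 100 days replicates 1, 2, 3 and 6 stood at 3.68, 3.46, 3.51 and 3.43, and replicates 4, 5 and 7 at 1.74, 1.08 and 1.45.

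The 18 collagen genes were set beside this list after their values were seen, with no test. The share of all genes with such an order was not computed, so the counts are not read as a result about collagens. At 100 days the 4 arrays with list means over 3 held the 4 highest G93A-SOD1 values of 7 genes (Col16a1, Col1a2, Col23a1, Col26a1, Col3a1, Col8a1 and Col8a2) and the 4 lowest of 1, Col4a2, while the other 10 were mixed. At 70 days they held the 4 highest values of Col7a1 and were mixed for the other 17. Col23a1 was 6.62, 6.25, 6.14 and 6.35 on replicates 1, 2, 3 and 6 at 100 days, and 4.90, 4.58 and 4.87 on replicates 4, 5 and 7. At 70 days it was 5.99, 5.80, 4.85 and 5.21 on replicates 1, 2, 5 and 6, and 4.65 to 5.15 on the others. So the 6 highest Col23a1 arrays of all 30 had list means over 3, while 2 arrays with list means over 3 had Col23a1 near the wild type range. Col8a1 was 7.71, 8.32, 8.30 and 7.64 on replicates 1, 2, 3 and 6 at 100 days and 6.07, 6.25 and 6.17 on replicates 4, 5 and 7. At 70 days it showed no such split: it was 7.21, 7.77, 6.05 and 6.42 on the high-list replicates 1, 2, 5 and 6, and 7.02, 7.38, 7.80 and 5.97 on replicates 3, 4, 7 and 8.

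Col7a1 at 70 days was 7.14, 7.33, 7.40 and 7.79 on replicates 1, 2, 5 and 6 and 5.90, 5.91, 6.08 and 6.23 on replicates 3, 4, 7 and 8, without overlap. At 100 days it was 7.16, 6.56, 6.25 and 7.22 on the high-list replicates 1, 2, 3 and 6, and 6.77, 6.14 and 5.81 on replicates 4, 5 and 7, with overlap. Wild type arrays ran from 5.42 to 7.12. Col4a2, called higher in G93A-SOD1, had the opposite order at 100 days: it was 11.67, 11.50, 11.74 and 12.09 on the high-list replicates 1, 2, 3 and 6, and 12.51, 12.15 and 12.20 on replicates 4, 5 and 7. Col3a1 was 7.03, 9.54, 9.64 and 7.71 on the high-list replicates and 6.84, 6.72 and 5.84 on the others. Col15a1 was mixed, since the G93A-SOD1 array with the highest value at 100 days, 9.68 on replicate 4, had a list mean of 1.74. Because the arrays form clusters of 3 or 4, no correlation is given, and whether nerve loss plays a part in these values was not tested.

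**Figure D5:**
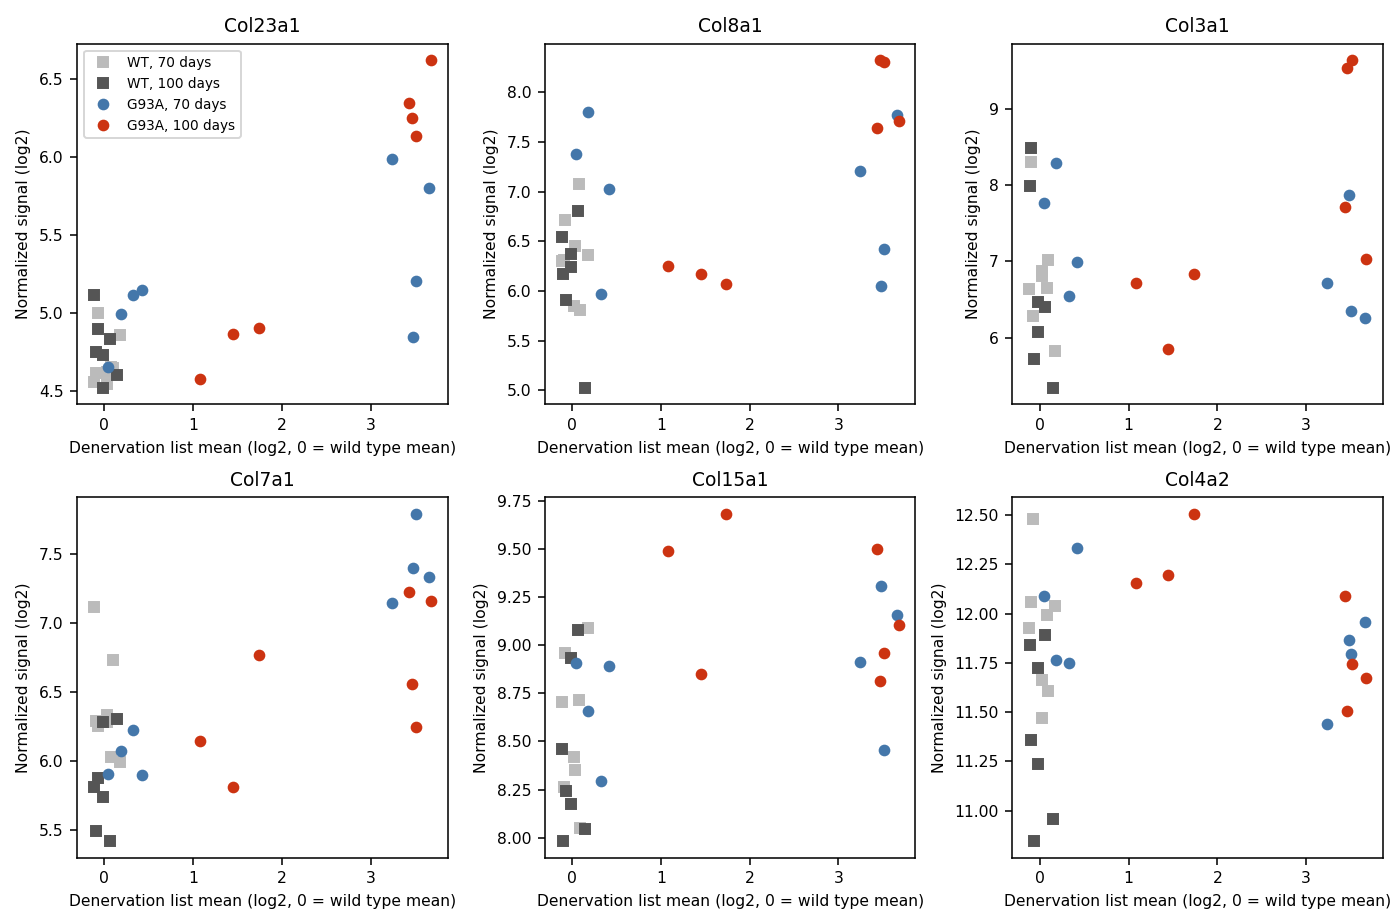
Normalized signal (log2, vertical) of Col23a1, Col8a1, Col3a1, Col7a1, Col15a1 and Col4a2 against the mean of 6 denervation transcripts (log2, horizontal; 0 is the wild type mean) on each of the 30 muscle arrays. Squares are wild type (light at 70 days, dark at 100) and circles G93A-SOD1 (blue at 70 days, red at 100); the 4 red circles with Col23a1 between 6.14 and 6.62 have list means from 3.43 to 3.68, and the same 4 arrays have the lowest red values of Col4a2.

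Across muscle arrays the chains of type IV collagen followed each other closely, while no relation was called between those of type I. With group means taken off, Col4a1 and Col4a2 had a Pearson r of 0.91 and a Spearman rho of 0.90 over 30 arrays (permutation p = 1e-05 for both, the smallest that 100000 permutations within groups can give; 2e-05 adjusted over 4 relations). Without the 2 arrays farthest from the median r was 0.89, and within the 4 groups it ran from 0.86 to 0.94. These arrays share whatever RNA yield and normalization they have in common.

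Col1a2 and Col3a1 were related at r = 0.83 and rho = 0.75 (permutation p = 1e-05, adjusted 2e-05), with 0.75 without the 2 outermost arrays and 0.39 to 0.95 within groups. The chains of one collagen I molecule, Col1a1 and Col1a2, were not called related, with r = 0.32 and rho = 0.29 (permutation p = 0.102 and 0.144, adjusted 0.136 and 0.192). Without the 2 outermost arrays their r was 0.20, and it ran from -0.15 to 0.60 within groups. Each has 1 probe, and that of Col1a2 was detected on 26 of 30 muscle arrays, against 30 for Col1a1. Whether low signal of the Col1a2 probe limits this relation was not tested. Col1a1 and Col3a1 stood at r = 0.14 and rho = 0.19 (permutation p = 0.396 and 0.297, which adjustment left as they were), with 0.14 without the outermost arrays and -0.29 to 0.40 within groups.

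Genes that make and handle collagen were examined in muscle at 100 days, where 6.05% of all genes were called higher and 10.8% in either direction; 1 or 2 calls in a list this short are not read as a result about the list. Of 17 tested genes for folding and modification, limma called 3 higher and 1 lower, with a median of 0.26. Serpinh1, the collagen chaperone HSP47, rose by 0.46 (SE 0.11; limma, adjusted p = 0.0134), from 10.27 ± 0.20 to 10.73 ± 0.14 (SD, n = 7 each). Ppib and Crtap, partners in the complex that modifies prolines of collagen chains, rose by 0.49 and 0.42 (limma, adjusted p = 0.0451 and 0.0348). P4ha1, a catalytic subunit of the main prolyl hydroxylase, fell by 0.45 (SE 0.12; limma, adjusted p = 0.0232).

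Of 6 tested cross-linking and processing genes 2 rose, Loxl1 by 0.72 (SE 0.17; limma, adjusted p = 0.0119) and Lox by 1.07 (SE 0.33; limma, adjusted p = 0.0357); both encode enzymes that cross-link collagen and elastin. Of 4 tested receptor genes 1 rose, Itgb1, the beta chain of the collagen-binding integrins, by 0.64 (limma, adjusted p = 0.0334). Of 9 tested genes for collagen breakdown and its control 1 rose, Timp1, an inhibitor of matrix proteases, by 1.52 (SE 0.40; limma, adjusted p = 0.0205). The medians of these lists were 0.25, 0.21 and 0.46, against -0.01 for all genes. In muscle at 70 days limma called 0 members of these 4 lists, with 2, 1, 0 and 4 at unadjusted p-values under 0.05 (15.4% of all genes). It called 0 in cord or blood at either age, with at most 1 member of any of these lists at the unadjusted level (2.32% to 6.26% of all genes).

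Markers of cells that make collagen were set beside these values, again with 10.8% of all genes called. Of 10 fibroblast markers limma called 0 in muscle at 100 days (median 0.15), of 9 endothelial markers 0 (median 0.08) and of 6 vessel wall markers 0 (median -0.07). At unadjusted p-values under 0.05 stood 1, 0 and 0 of them, against 28.0% of all genes. Summed over the 10 fibroblast markers the level ran from 80.6 to 85.2 in wild type and from 80.4 to 89.0 in G93A-SOD1 (log2 units), and over the 9 endothelial markers from 79.1 to 85.3 and from 78.6 to 86.4. Of 6 macrophage markers 2 rose, Aif1 by 0.57 and Cx3cr1 by 0.53 (limma, adjusted p = 0.0187 and 0.0277), with summed levels from 33.4 to 38.1 and from 36.8 to 43.3. The next 3 genes are single members of the tissue-defining lists and are not read as a result about a list. S100a8 of neutrophils, 1 of 2 blood transcripts tested in muscle, rose by 2.55 (limma, adjusted p = 0.0406). Mbp of myelin, the only neural or glial transcript tested there, fell by 1.68 (limma, adjusted p = 0.0109). Myh4 of fast muscle fibres, 1 of 7 muscle transcripts tested, fell by 1.71 (limma, adjusted p = 0.0341). Their part and that of any of these cells in the collagen differences was not tested. Of the fibroblast, endothelial and macrophage markers on the array, none was undetected on all muscle arrays, while the vessel wall marker Cnn1, the muscle stem cell markers Myf5 and Pax7 and the Schwann cell markers Egr2, Ngfr and S100b were.

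In spinal cord limma called 0 of 20 collagen genes at 70 days (0.0278% of all genes) and 0 at 100 days (0.0185%). Unadjusted p-values under 0.05 were reached by 0 and 2 of the 20 (5.01% and 3.24% of all genes). Nor did any collagen separate the genotypes, which 0.037% and 0.0741% of all genes did in either direction (0.00926% and 0.0463% with G93A-SOD1 higher). The medians of the collagen differences were -0.06 and 0.03, with 6 and 12 of 20 above 0 (44.5% and 54.8% of all genes). Both turned sign with the setting: at 70 days the median ran from -0.22 with median centring to 0.07 without the 2 dim arrays (2 to 13 of 20 above 0 over all settings), and at 100 days from -0.02 without G93A-SOD1 replicate 7 to 0.19 with median centring (8 to 18 of 20). At 70 days the nearest to the threshold were Col28a1, a collagen of peripheral glia, at 0.75 (SE 0.37), Col8a2 at -0.42 (SE 0.24) and Col4a1 at -0.64 (SE 0.39), each at an adjusted p of 0.740 in limma.

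Col28a1 and Col4a1 had their most distant value on the dim G93A-SOD1 replicate 1. Its Col28a1 value of 9.19 stood against 5.10 to 5.70 on the other 7 arrays of that group, and its Col4a1 value of 5.31 against 7.90 to 9.38. Without the 2 dim arrays the differences were 0.29 and -0.19, and without the 3 arrays with muscle transcripts as well they were 0.23 and -0.03. Col4a2, whose probe was detected on every cord array, ran from 9.90 to 10.75 in wild type and 9.59 to 10.95 in G93A-SOD1 at 70 days, a difference of -0.10 (interval -0.46 to 0.26).

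At 100 days in cord Col14a1, a fibril-associated collagen, differed by -0.33 (SE 0.12), Col16a1 by 0.34 (SE 0.16) and Col28a1 by -0.38 (SE 0.39), each at an adjusted p of 1.0 in limma. The Col14a1 probe was detected on only 13 of 31 cord arrays, so low signal limits its values. Col16a1 ran from 8.57 to 9.76 in wild type (median 9.26) and from 9.01 to 9.89 in G93A-SOD1 (median 9.52), with wide overlap. Col1a1 ran from 6.92 to 9.23 in wild type and from 6.81 to 11.34 in G93A-SOD1, where 1 array, replicate 7, stood far above the rest. Col15a1, which rose in muscle, differed by 0.00 in cord (interval -0.59 to 0.59), and Col4a1 and Col4a2 by -0.22 and -0.07 (intervals -1.05 to 0.62 and -0.44 to 0.30). Whether muscle and cord differ in these effects was not tested.

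With age, limma called 0 of 20 collagens in wild type cord and 0 in G93A-SOD1 cord (0% of all genes in both). An unadjusted p-value under 0.05 was reached by 1 of 20 in each (2.68% and 7.07% of all genes). In wild type cord Col14a1 differed by 0.35 and Col4a5 by 0.28 (limma, adjusted p = 0.999 for both). In G93A-SOD1 cord Col8a1 differed by 0.44 and Col8a2 by 0.48 (limma, adjusted p = 0.677 for both). Above 0 there were 15 of 20 collagens and 59.0% of all genes (medians 0.24 and 0.04). The genotype difference itself differed between the ages by -0.51 for Col14a1 and -1.13 for Col28a1, and limma called neither (adjusted p = 0.803 for both). It called 0 of 20 collagens and 0% of all genes, with 2 of 20 at the unadjusted level (4.04% of all genes). The change was above 0 for 17 of 20 (57.4% of all genes), with a median of 0.18, against 0.04 for all genes. The genotype medians of cord at both ages turned sign with the setting, as given above. Without the 2 dim arrays the value of Col28a1 was -0.41.

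Blood held few collagen transcripts, and none of the 4 tested was detected on every array. Limma called 0 of 4 at 70 days (0.0714% of all genes) and 0 at 100 days (0.0595%, or 0.0238% higher). At unadjusted p-values under 0.05 stood 0 at both ages (6.26% and 2.32% of all genes). None separated the genotypes, which 0.0595% of all genes did at each age (0.0119% and 0.0238% with G93A-SOD1 higher). At 70 days Col23a1 differed by 0.17 (interval -0.13 to 0.47), Col6a1 by -0.16 and Col4a2 by -0.05 (limma, adjusted p = 0.929, 0.973 and 0.984). Without the wild type array of high background they were 0.22, -0.28 and -0.08. At 100 days Col5a1 differed by -0.40 (interval -0.81 to 0.01), Col6a1 by -0.10 and Col4a2 by -0.07 (limma, adjusted p = 1.0 for each). Col6a1 was detected most often, on 4 to 7 arrays of each group, and ran from 4.75 to 7.12 over all blood arrays. Its brightest probe in blood was not the one used in cord and muscle. In blood that other probe differed by 0.12 at 70 days, against -0.16, and by -0.24 at 100 days, against -0.10.

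Across age, limma called 0 of 4 collagens in wild type blood, 0 in G93A-SOD1 blood and 0 for the change of the genotype difference (0% of all genes in each). At the unadjusted level stood 0 of 4 in each, against 9.71%, 5.89% and 1.44% of all genes. In wild type blood Col4a2 differed by 0.20 and Col6a1 by 0.34 (limma, adjusted p = 0.652 and 0.694). In G93A-SOD1 blood Col23a1 differed by -0.30 and Col6a1 by 0.41 (limma, adjusted p = 0.839 and 0.916). Between the ages the genotype difference moved by -0.34 for Col5a1 and -0.22 for Col23a1 (limma, adjusted p = 1.0 for both).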

How the data were processed

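For 92 arrays and 24613 probes, the deposited values were a signal intensity and, beside it, a detection p-value. The intensity values were non-normalized per the file headers, and neither the scanner software nor how the authors computed the detection p-value is stated in the sources. The authors' series matrix, also deposited, had log2 values that kept the rank order of the intensities on all 92 arrays; their normalization is not stated (column median 7.42 on 90 arrays and 6.38 on 2, with centring unknown). Probes were named from the platform annotation, which is old: 20984 had 1 symbol, 1 had several and 3628 had none. All 37 collagen genes matched RefSeq (GRCm38.p6) by Entrez identifier with the same symbol. The 7 lines that named no probe, 0.00539% of the signal, were dropped. The genome build that the authors used was not given in the sources used here.

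Each tissue was background corrected and quantile normalized on its own by limma's neqc (offset 16, with negative controls inferred from the detection p-values). Probes without a single symbol stayed in as genes of their own. All 4 groups of a tissue entered one limma fit over all genes, two-sided, with Benjamini-Hochberg adjustment at 0.05, and all adjusted p-values come from such fits. Values are log2 units of normalized signal, and levels of different probes were not set against each other. Relations between chains were tested by permuting arrays within groups, two-sided. The members, classes, marker lists and alternatives were chosen with earlier results of these data known. Genes named were those past the threshold, otherwise the 3 (genotype) or 2 (age, interaction) with the smallest p, with Col13a1, Col19a1 and Col25a1 in muscle and up to 4 called members of a list. Other collagen genes in the text were added after their values were seen. Replicate numbers were not treated as pairs, since the labels do not say what they mark. Same-numbered arrays of the 2 genotypes correlated from -0.31 to 0.52 after group means were taken off. By tissue and age the medians ran from 0.09 to 0.25, so some shared structure is possible. In muscle the best match had the same number for 3 of 8 arrays at 70 days and 3 of 7 at 100 days. In cord this held for 0 at either age. Data were simulated for muscle at 100 days (9089 genes, independent normal noise), with 67, 67 and 66 genes moved by 0.5, 1 and 2 log2 units. The procedure recovered 47.8%, 91% and 95.5% of these changes, with 8.77% of calls false at the threshold of 0.05. The real arrays gave 982 calls and form clusters, so these rates need not hold for them. The fits ran in R (4.3.3) with limma (3.58.1), and figures were drawn with matplotlib (3.10.9) in Python (3.11.15).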

Additional observations from a re-analysis of the deposited data

Results flagged for a closer look

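Within the 4 groups of each tissue, the named collagen genes were searched for 1 array far from the rest by Dixon's test. Of 68 groups examined over 17 genes in their tissues 6 held such an array, where chance gives about 5%. In spinal cord Col28a1 was high on wild type replicate 6 at 70 days (5.69, against 4.98 to 5.26 on the others), on G93A-SOD1 replicate 1 at 70 days (9.19, against 5.10 to 5.70) and on wild type replicate 5 at 100 days (7.20, against 5.21 to 5.97). Col4a1 was low on the same G93A-SOD1 replicate 1 at 70 days (5.31, against 7.90 to 9.38). Replicates 1 and 5 in these groups are the dim cord arrays; their part in these values was not tested. In blood Col4a2 was high on G93A-SOD1 replicate 7 at 100 days (6.05, against 4.90 to 5.35) and Col5a1 on wild type replicate 7 at 100 days (6.82, against 4.83 to 5.33).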

How the results depend on the processing

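The count of 4 collagen genes called in muscle at 100 days was 0 with median centring and 1 without the detection filter. It was 9 with array weights and 7 with the replicate number as a block. What a replicate number marks is not stated in the labels, and the cause of these shifts was not tested. With median centring 43 of all genes were called, and Col15a1 stood at an adjusted p of 0.0981 in limma. The median of all genes then moved to 0.18 and that of the collagens to 0.80. With 1 array left out the count of collagens ran from 1 to 8, and Col15a1 was called each time (limma, adjusted p from 0.00784 to 0.0380). Over all genes the count of 982 was 43, 498, 1575 and 1322 in those settings. A fit on only the groups compared ended the calls of Col23a1 and Col4a2 (limma, adjusted p = 0.0539 and 0.0586). Under the settings tried on the tested genes, 16 or 17 of the 18 stayed above 0. The counts of 0 elsewhere stayed at 0 in every setting run. Signs turned for 5 uncalled cord values with the series matrix (Col14a1 0.0875, 0.184 and -0.0867 for 100 days, interaction and wild type age, Col28a1 0.0419 at 100 days, Col4a5 -0.0917 for wild type age). In blood Col6a1 turned with median centring (0.0552 and 0.116 at 70 and 100 days) and array weights (0.101 at 100 days). With 1 array left out Col6a1 ran from -0.281 to 0.0565 at 70 days and from -0.297 to 0.0805 at 100 days, and Col4a2 from -0.0832 to 0.0212 and from -0.191 to 0.0202. Low signal over background limits Col23a1 in muscle and all collagens in blood. It also limits other genes detected on few arrays. Among them, Col14a1, Col1a2, Col27a1 and Col3a1 were detected on 13, 9, 9 and 8 of 31 cord arrays. Col10a1 and Col26a1 were detected on 11 and 9 of 30 muscle arrays.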
